A study of Homo sapiens with 58 samples.

Results

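The 10 genes described here are HSPA1A, HSPA1B, HSPA6, HSPA8, DNAJB1, HSPH1, HSP90AA1, HSPB1, BAG3 and HSPD1. They are the heat shock and chaperone genes of HepG2 cells treated with herbal extracts. They were chosen by name, and all 10 were found among the 60675 gene identifiers of the count table. HSPD1 is a mitochondrial chaperonin and not a cytosolic chaperone, although it was listed with the others.

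HepG2, an established human hepatocellular carcinoma line, was exposed for 24 h to an extract or to dimethyl sulfoxide (DMSO) vehicle, and its mRNA was sequenced in 58 libraries that fall into 24 groups. Sayeok-tang and Bojungikgi-tang are multi-herb formulas extracted in hot water. The other 6 extracts were single herbs extracted with ethanol. They were Coptidis Rhizoma, Zizyphi Fructus, Scutellariae Radix, Pinelliae Tuber, fresh ginger (Zingiberis Rhizoma Recens) and dried ginger (Zingiberis Rhizoma). High, medium and low doses were 500, 100 and 20 µg/mL. Coptidis Rhizoma was present at its medium and low doses of 56 and 11.2 µg/mL. Vehicle, Sayeok-tang, fresh ginger, Pinelliae Tuber and Scutellariae Radix had 3 libraries per group, and dried ginger had 3 at its medium and low doses and 2 at its high dose. Bojungikgi-tang had 2 libraries per dose, and Coptidis Rhizoma and Zizyphi Fructus had 1 per dose, so those 5 groups could not be tested. The sample labels give the vehicle as 0.1% DMSO and the series text gives 2%.

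Heat shock proteins are chaperones that bind unfolded proteins, help them fold and pass those that cannot fold to degradation. When unfolded protein accumulates, heat shock factor 1 (HSF1) is released from chaperones, forms trimers and binds heat shock elements, which are inverted repeats of the 3-base unit GAA, in the promoters of chaperone genes. HSPA1A, HSPA1B, HSPA6, DNAJB1, HSPH1, HSPB1 and BAG3 are inducible in this way to different degrees. HSPA8 and HSP90AA1 are abundant in unstressed cells, as is HSPD1, and hepatocytes rely on them to handle a large flow of newly made protein.

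Library totals ran from 22143845 to 31859981 expected counts. Replicate 3 of Scutellariae Radix low and replicate 3 of dried ginger low lay farther from their own group than other replicates did, with a chi-square per gene of 13.99 to 17.61 against the rest of their groups and of 3.43 and 2.35 between the other pair. Calls of the members that were lost without them are named. All 16 hepatocyte markers were tested and summed to between 36453 and 52063 CPM (counts scaled to a common library size) over the libraries. Among markers of other cell types, 2 of 8 fibroblast, 3 of 8 leukocyte and 1 of 6 endothelial genes were above the filter. The leukocyte genes were CD68, LYZ and CD14, which summed to between 1190 and 2374 CPM. The fibroblast genes COL1A1 and PDGFRB summed to between 3.86 and 24.1 CPM, and endothelial PECAM1 was at 1.69 to 4.17 CPM. PTPRC, VWF, DCN and COL3A1 were among those below the filter. The sample numbers in the labels carry 1 prefix for vehicle and others for the extracts whose meaning is not stated, although all titles carry the same batch letter. Prefix and treatment therefore cannot be told apart in comparisons with vehicle, whereas high and low doses of an extract, the formulas, the gingers, and Scutellariae Radix and Pinelliae Tuber share a prefix. Whether replicates came from separate cultures is not stated, and the p-values therefore cover only the spread between these libraries, which may be technical.

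Levels are CPM scaled by the trimmed mean of M values (TMM), given for each library or as mean ± SD. A gene is said to have risen or fallen where its adjusted p was below 0.05 in edgeR's quasi-likelihood test, fitted over all libraries and adjusted by Benjamini-Hochberg over the 13945 genes tested in that comparison. Log2 folds are given ± their standard error (SE). HSPA6 passed the filter on low values only through the Scutellariae Radix high libraries. It is described by its counts, and counts of genes called refer to the other 9. The 18 comparisons with vehicle share its 3 libraries.

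The start regions of these genes are shown because HSF1 is known to act through heat shock elements, and because genes that hold such an element moved in different directions here. RefSeq promoter windows of 300 bases (250 before and 50 after an annotated start, GRCh38.p14) were searched for GAANNTTC and TTCNNGAA, called a 2-unit element, and for GAANNTTCNNGAA and TTCNNGAANNTTC, a 3-unit element that contains 2-unit ones. Each pattern was searched on both strands. The 2-unit element occurred in 13.5% of all 35116 windows and the 3-unit element in 0.49%, and 16.2% and 0.608% of all genes held them in any window. All 10 genes had at least 1 window, 8 of them held a 2-unit element in any window and 4 (HSPA6, HSPA8, HSP90AA1 and HSPD1) a 3-unit element. No such letters were found in the windows of HSPH1 and BAG3. The 30 bases around an element are printed for the genes that rose most and for 3 that fell with Scutellariae Radix, on the strand of the gene, with elements in capitals.
HSPA6, chr1:161524457-161524486, plus strand: gcggaaaggTTCGCGAAAGTTCgcggcggc
HSPA1A, chr6:31815426-31815455, plus strand: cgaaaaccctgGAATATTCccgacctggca
HSPA1B, chr6:31827622-31827651, plus strand: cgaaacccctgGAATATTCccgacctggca
HSPA8, chr11:123062171-123062200, minus strand: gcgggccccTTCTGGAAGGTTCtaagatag
HSP90AA1, chr14:102087104-102087133, minus strand: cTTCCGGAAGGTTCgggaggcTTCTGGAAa
HSPB1, chr7:76302480-76302509, plus strand: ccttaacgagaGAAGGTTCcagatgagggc
The HSPA6 stretch covers bases -83 to -54 from the start and holds a 3-unit element. The stretches of HSPA1A and HSPA1B hold the same 2-unit element. A match describes these letters and does not show that a factor was bound in these cells.

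**Figure D1:**
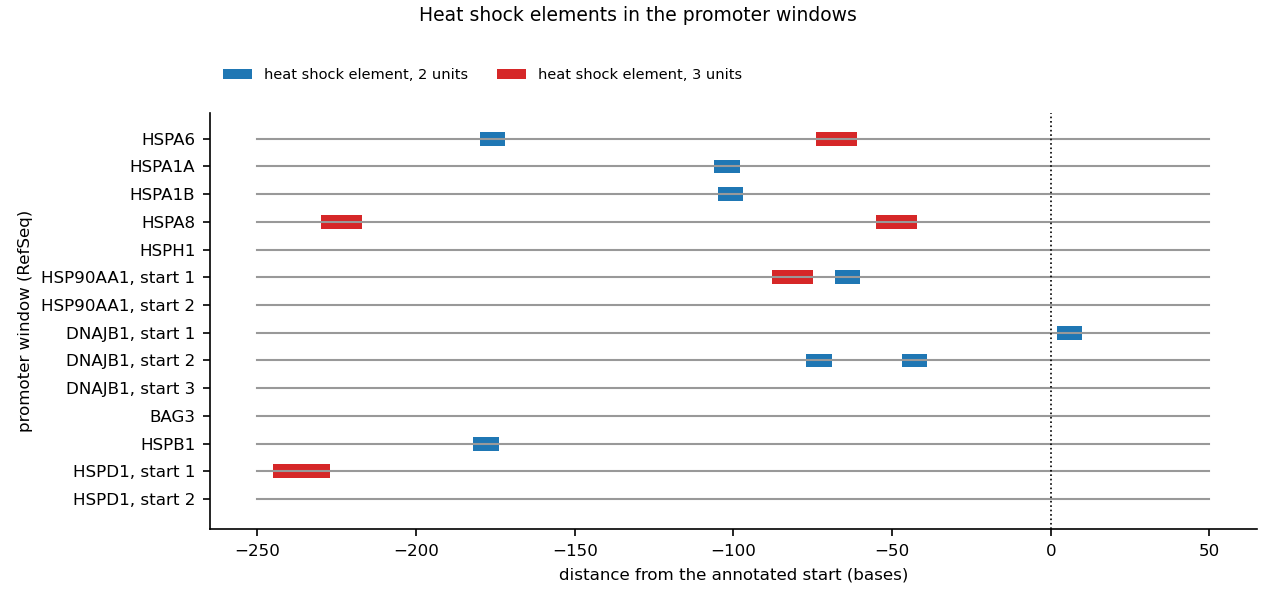
Heat shock elements in the RefSeq promoter windows of the 10 genes, by distance from the annotated start in bases. Grey lines are the searched windows, blue bars 2-unit elements and red bars 3-unit elements, which cover the 2-unit elements inside them. The 3-unit elements lie in windows of HSPA6, HSPA8, HSP90AA1 and HSPD1, and the windows of HSPH1 and BAG3 hold none.

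In vehicle libraries the genes covered a wide range. Per kilobase of merged exons, HSPD1 was highest at 572 ± 20.2 CPM per kb (SD, n = 3), followed by HSP90AA1, the stress-inducible cytosolic HSP90, at 462 ± 30.6 and HSPA8, the constitutive HSP70, at 350 ± 1.94. HSPA1B stood at 95.6 ± 0.836 and HSPA1A at 62.2 ± 2.66 CPM per kb. These inducible HSP70 genes encode nearly the same protein. DNAJB1, the J domain protein that drives the HSP70 cycle, reached 53 ± 0.106 CPM per kb and the small heat shock protein HSPB1 30.6 ± 2.14. HSPH1, the HSP110 that acts as nucleotide exchange factor for HSP70, reached 22.4 ± 0.409 and BAG3, an HSP70 exchange factor that links it to autophagy, 13.4 ± 0.0876. HSPA6, an HSP70 gene that is nearly silent without stress, came last at 0.0174 ± 0.0301 CPM per kb. The vehicle libraries of neighbouring genes in this order did not overlap on this scale.

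HSPA1A (ENSG00000204389, chromosome 6, 31815464 to 31817946, plus strand, GRCh38 with GENCODE release 29) and HSPA1B (ENSG00000204388, chromosome 6, 31827735 to 31830255, plus strand) are protein-coding neighbours. Of the 100-base windows of HSPA1A transcripts, 67.3% also occur in HSPA1B, and 68.8% of those of HSPA1B occur in HSPA1A. How the expected counts were split between them is therefore uncertain, and their sum is given beside them. HSPA6 (ENSG00000173110, chromosome 1, 161524540 to 161526910, plus strand) shares 27.6% of its windows with HSPA7. The other members shared at most 2.37% with any other gene, and HSPA8, DNAJB1, HSPH1 and BAG3 shared none.

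Scutellariae Radix at the high dose raised the inducible HSP70 genes and lowered HSP90AA1 and HSPB1. HSPA6 gave the clearest difference. Its expected counts were 406, 343 and 335 in the 3 Scutellariae Radix high libraries and 3, 0 and 0 in the vehicle libraries, a ratio of 347 per library size with a 95% interval of 118 to 1686 that covers counting error only. Scutellariae Radix medium had 2, 0 and 3 counts, for a ratio of 216 (92.4 to 667), and Scutellariae Radix low had none, so the high dose was at least 371-fold higher with a floor of 3 counts over the group. At the high dose HSPA6 reached 14.3, 13.6 and 12.8 CPM. Among the other 55 libraries the highest count was 6, in fresh ginger high, and 26 libraries had none. Every Scutellariae Radix high library thus stood far above every other library of the series.

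HSPA1A and HSPA1B rose with it. HSPA1A stood at 240, 218 and 231 CPM in the Scutellariae Radix high libraries and at 148, 154 and 161 CPM in vehicle, a log2 fold of 0.57 ± 0.067 (SE, adjusted p = 5.9e-10). HSPA1B stood at 366, 341 and 339 CPM against 243, 240 and 239, a log2 fold of 0.53 ± 0.067 (adjusted p = 3.5e-09). The groups did not overlap for either gene. Summed, they went from 396 ± 4.69 to 579 ± 24.4 CPM (SD, n = 3 each), 46.3% higher (log2 fold 0.55 ± 0.062, adjusted p = 2.4e-10).

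The exchange factors of HSP70 rose by less. HSPH1 (ENSG00000120694, chromosome 13, 31134974 to 31162388, minus strand) had 228, 227 and 220 CPM against 186, 192 and 186 in vehicle, a log2 fold of 0.26 ± 0.035 (adjusted p = 1.9e-08). BAG3 (ENSG00000151929, chromosome 10, 119651370 to 119677819, plus strand) had 43.3, 45.5 and 45.5 CPM against 37, 36.7 and 37.2, a log2 fold of 0.28 ± 0.075 (adjusted p = 0.0017). In both genes all 3 treated libraries lay above all vehicle libraries. DNAJB1 (ENSG00000132002, chromosome 19, 14514770 to 14529770, minus strand) had 205, 201 and 198 CPM against 194, 195 and 194, and its log2 fold of 0.05 ± 0.033 did not pass (adjusted p = 0.21).

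Other members fell. HSP90AA1 (ENSG00000080824, chromosome 14, 102080738 to 102139699, minus strand) fell from 2358, 2606 and 2305 CPM in vehicle to 1947, 1920 and 1958 CPM, a log2 fold of -0.32 ± 0.037 (adjusted p = 6.2e-10). HSPB1 (ENSG00000106211, chromosome 7, 76302544 to 76304295, plus strand), which holds unfolded proteins without using ATP, fell from 49.4, 46.9 and 53.8 CPM to 39.5, 35.8 and 39.5 (log2 fold -0.38 ± 0.071, adjusted p = 8.9e-06). Neither gene's groups overlapped. HSPA8 (ENSG00000109971, chromosome 11, 123057489 to 123063230, minus strand) fell by 6.0%, from 1698 ± 9.39 to 1596 ± 6.45 CPM (adjusted p = 0.041), and leaving out any 1 of the 6 libraries ended that call (adjusted p 0.062 to 0.089). HSPD1 (ENSG00000144381, chromosome 2, 197486581 to 197516737, minus strand), the chaperonin of the mitochondrial matrix, was at 2473 ± 38.9 CPM against 2427 ± 85.6 (log2 fold 0.03, adjusted p = 0.57).

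Against vehicle, 4 of the 9 genes rose and 3 fell with Scutellariae Radix high, where 28.7% of all genes tested rose and 28.1% fell. The number of genes called was thus not far from what the whole transcriptome showed, and the median log2 fold of the 9 genes was 0.05 beside 0.01 for all genes. In the same libraries the 16 hepatocyte markers summed to a mean of 36576 CPM against 47683 in vehicle, the 2 fibroblast markers to 4.37 against 10.9, the 3 leukocyte markers to 1733 against 1361 and the endothelial marker to 2.45 against 3.25. Their part in the results was not tested.

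Within the extract, and so within 1 label prefix, all 9 genes differed between the high and the low dose, 5 of them higher and 4 lower, beside 27.2% of all genes higher and 28.5% lower. HSPA1A was at 133, 134 and 122 CPM at the low dose and rose by a log2 fold of 0.82 ± 0.067 (adjusted p = 2e-14). HSPA1B rose by 0.52 (adjusted p = 7.5e-09), BAG3 by 0.31 (adjusted p = 0.00048), HSPH1 by 0.24 (adjusted p = 7.6e-08) and DNAJB1 by 0.16 (adjusted p = 0.00011), all on the log2 scale. HSP90AA1 changed by -0.30 (adjusted p = 3.6e-09), HSPB1 by -0.27 (adjusted p = 0.0011), HSPA8 by -0.17 (adjusted p = 0.00022) and HSPD1 by -0.12 (adjusted p = 0.01). Without replicate 3 of the low dose the HSPD1 call was lost (log2 fold -0.07, adjusted p = 0.15), and the other 8 calls held.

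**Figure D2:**
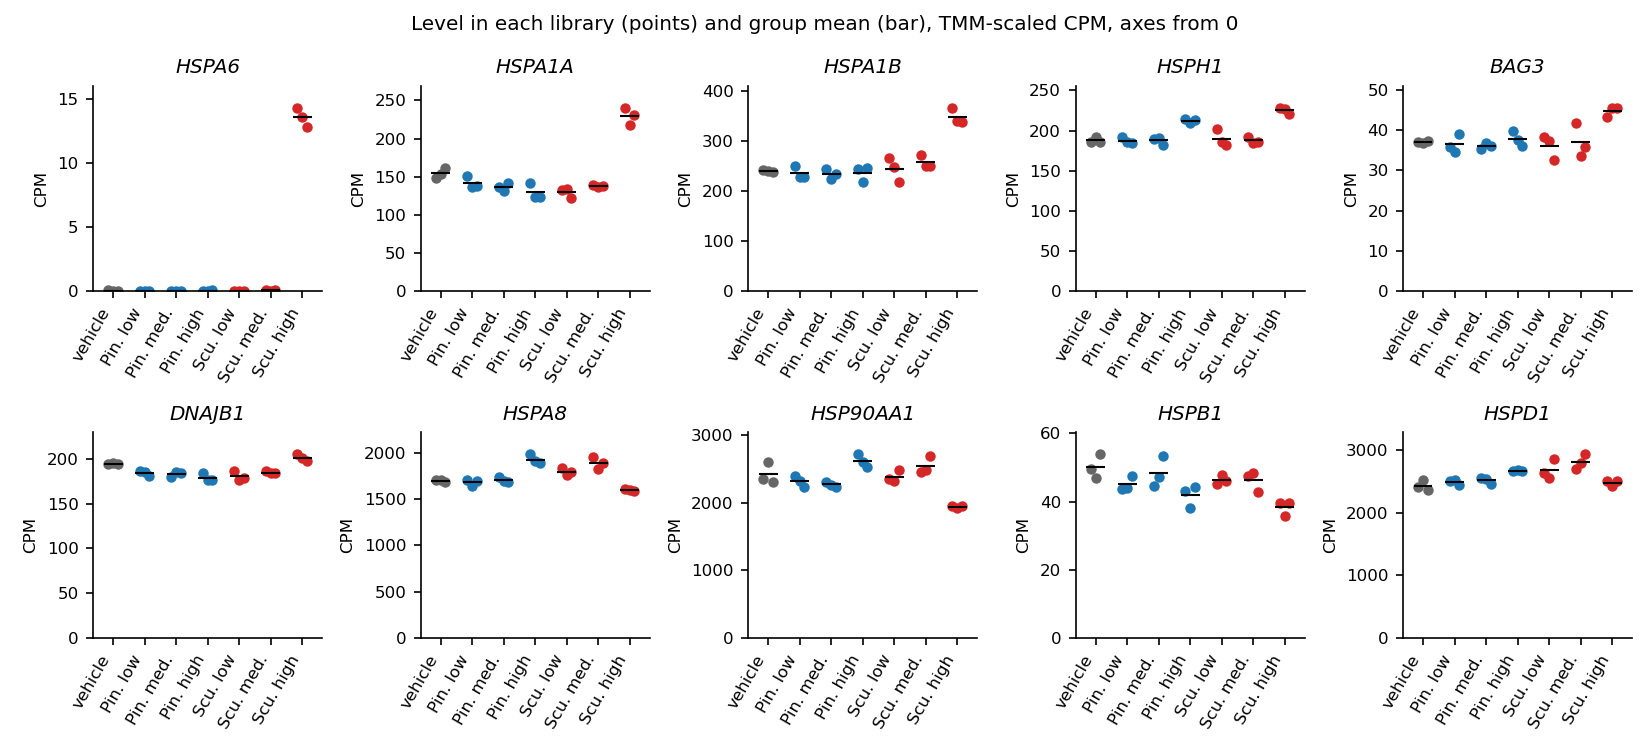
Level of each of the 10 genes in CPM (axes from 0) in vehicle (grey), Pinelliae Tuber (blue) and Scutellariae Radix (red) at low, medium and high doses. Points are libraries and bars group means; HSPA6 is near 0 in all but the Scutellariae Radix high libraries, at 12.8 to 14.3 CPM, where HSPA1A and HSPA1B are also highest and HSP90AA1 and HSPB1 lowest.

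At the lower doses of Scutellariae Radix the pattern was another one. With the medium dose HSPA8 rose from 1706, 1699 and 1687 CPM in vehicle to 1951, 1826 and 1892 CPM (log2 fold 0.15 ± 0.038, adjusted p = 0.0023). HSPD1 rose to 2692, 2794 and 2926 CPM from 2405, 2521 and 2354 (log2 fold 0.21 ± 0.039, adjusted p = 8.2e-05). These 2 of 9 genes rose and none fell in the main fit, where 8.99% of all genes rose and 9.33% fell, and HSPA1A at 139, 137 and 138 CPM did not pass. HSPA1A passed as lower in edgeR with no filter (adjusted p = 0.0068) or only the groups compared (0.0062). HSP90AA1 passed as higher in edgeR without vehicle replicate 2 (adjusted p = 0.017). With the low dose HSPD1 rose (log2 fold 0.14, adjusted p = 0.013) and HSPA1A and DNAJB1 fell (-0.25 and -0.11, adjusted p = 0.013 and 0.034), beside 5.44% of all genes higher and 4.87% lower. All 3 low-dose calls were lost without replicate 3 of that group, and likewise without replicate 3 of the vehicle. The HSPA1A call was also lost when HSPA1A and HSPA1B were added (log2 fold -0.08, adjusted p = 0.44).

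Both gingers lowered most of these genes at the high dose, and none of the 9 passed as higher than vehicle in the main edgeR fit. With fresh ginger high 7 of 9 fell, where 23.6% of all genes fell and 24.3% rose. With dried ginger high 5 of 9 fell, where 22.8% of all genes fell and 23.3% rose. The median log2 fold of the 9 genes was -0.17 with either ginger, beside 0.00 for all genes.

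The inducible HSP70 genes were among those that fell. HSPA1A stood at 133, 107 and 104 CPM with fresh ginger (log2 fold -0.43 ± 0.069, adjusted p = 1.1e-06) and at 116 and 104 CPM with dried ginger (-0.49 ± 0.078, adjusted p = 1.1e-06), against 148 to 161 CPM in vehicle. HSPA1B stood at 209, 171 and 183 CPM with fresh ginger (-0.36 ± 0.068, adjusted p = 1.7e-05) and at 219 and 201 CPM with dried ginger (-0.20 ± 0.076, adjusted p = 0.028), against 239 to 243 CPM. All ginger libraries lay below all vehicle libraries for both genes. The dried ginger call for HSPA1B was lost without replicate 2 of that group (log2 fold -0.14, adjusted p = 0.27) or without vehicle replicate 1 (adjusted p = 0.06). HSPA6 had 6, 3 and 3 counts with fresh ginger, none at the low dose of fresh ginger and none in either dried ginger high library. Fresh ginger high thus held the highest summed HSPA6 count outside Scutellariae Radix high, 12, while HSPA1A and HSPA1B were low in the same libraries. That sum depends on the number of libraries. As mean CPM, fresh ginger high was at 0.154, below the 0.182 CPM of the 1 Coptidis Rhizoma medium library.

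HSP90AA1 and HSPB1 fell with similar size. HSP90AA1 stood at 1780, 1862 and 1849 CPM with fresh ginger (log2 fold -0.40 ± 0.037, adjusted p = 1.4e-12) and at 1864 and 1892 CPM with dried ginger (-0.37 ± 0.042, adjusted p = 6.5e-10). HSPB1 stood at 39.6, 36 and 31.9 CPM with fresh ginger (-0.48 ± 0.071, adjusted p = 2.4e-07) and at 37.5 and 33.4 CPM with dried ginger (-0.50 ± 0.082, adjusted p = 1.9e-06). No ginger library reached the lowest vehicle value of either gene. DNAJB1 fell by 10.9% with fresh and 11.0% with dried ginger (adjusted p = 5.4e-05 and 0.00028). Low doses of fresh and dried ginger had 182 ± 6.92 and 183 ± 5.65 CPM of DNAJB1, against 195 ± 0.39 in vehicle. From low to high dose DNAJB1 did not pass in the main fit with either ginger. Its mean lay below the vehicle mean in every extract group except Scutellariae Radix high. HSPH1 and BAG3, which were higher with Scutellariae Radix, did not pass with fresh ginger (log2 folds 0.08 and 0.08, adjusted p = 0.06 and 0.4) or with dried ginger (0.07 and 0.12, adjusted p = 0.17 and 0.27). HSPH1 with fresh ginger passed as higher in DESeq2 (adjusted p = 0.041). It also passed in edgeR with RLE scaling (adjusted p = 0.042), a replicate block (0.036) or without vehicle replicate 2 (0.049). BAG3 with dried ginger passed as higher in edgeR with only the groups compared (adjusted p = 0.041).

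The gingers were set against each other directly, within 1 prefix. At the high dose 1 of 9 genes differed, HSPD1, at 2030, 2190 and 2256 CPM with fresh ginger and 2341 and 2444 CPM with dried ginger (log2 fold -0.15 ± 0.043, adjusted p = 0.0094), while 13.2% of all genes were higher with fresh ginger and 10.2% lower. That call was lost without dried ginger replicate 2 (log2 fold -0.12, adjusted p = 0.16) or without fresh ginger replicate 1 (-0.11, adjusted p = 0.088). Between the gingers the log2 difference of HSP90AA1 was -0.04 ± 0.042 and that of HSPB1 0.02 ± 0.083. Against vehicle, HSPD1 fell with fresh ginger (log2 fold -0.17, adjusted p = 0.00034) and was at -0.02 with dried ginger (adjusted p = 0.74). HSPA8 fell by 6.4% with fresh ginger (adjusted p = 0.033), a call that was lost on leaving out any vehicle library, and was 6.6% lower with dried ginger (adjusted p = 0.052).

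Dose series within the gingers gave the same directions. From low to high dose of fresh ginger 6 of 9 genes fell (24.3% of all genes fell and 23.3% rose) and the largest change was in HSPB1 (log2 fold -0.44, adjusted p = 1.1e-06), then HSP90AA1 and HSPA1B at -0.31 each (adjusted p = 2.6e-09 and 0.00021) and HSPA1A at -0.30 (adjusted p = 0.00027). The smallest of the 6, HSPA8 at -0.10 (adjusted p = 0.022), no longer passed without fresh ginger low replicate 1 (adjusted p = 0.16) or high replicate 3 (adjusted p = 0.12). From low to high dose of dried ginger HSPA1A (-0.38), HSPB1 (-0.38), HSP90AA1 (-0.27) and HSPA1B (-0.21) fell and HSPH1 rose (0.12), where 24.3% of all genes fell and 23.2% rose. Without replicate 3 of dried ginger low the calls of HSPA1B and HSPH1 were lost (adjusted p = 0.19 and 0.086). In that setting HSPA8 and DNAJB1 passed as lower (log2 folds -0.13 and -0.10, adjusted p = 0.0067 and 0.041). Leaving out high replicate 2 ended the call of HSPA1B (adjusted p = 0.22) and high replicate 1 that of HSPH1 (adjusted p = 0.056). At the medium dose fresh ginger already lowered HSPA1A, DNAJB1 and HSP90AA1 (log2 folds -0.26, -0.17 and -0.19, adjusted p = 0.0082, 0.00026 and 0.00022), where 4.66% of all genes fell and 6.63% rose. The HSPA1A call did not hold when it was added to HSPA1B (adjusted p = 0.064), nor without vehicle replicate 3 (adjusted p = 0.059) or fresh ginger medium replicate 3 (adjusted p = 0.069). The sum did pass as lower in DESeq2 (adjusted p = 0.034) and in edgeR with no filter (adjusted p = 0.0012) or only the groups compared (adjusted p = 0.0014). HSP90AA1 was also lower with fresh than with dried ginger at that dose, 2118 ± 39.4 against 2339 ± 36.7 CPM (adjusted p = 0.0096), the 1 gene of the 9 that differed, where 2.85% of all genes were lower and 4.31% higher. Leaving out dried ginger medium replicate 1 or fresh ginger medium replicate 3 took that call to an adjusted p of 0.059 or 0.061.

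**Figure D3:**
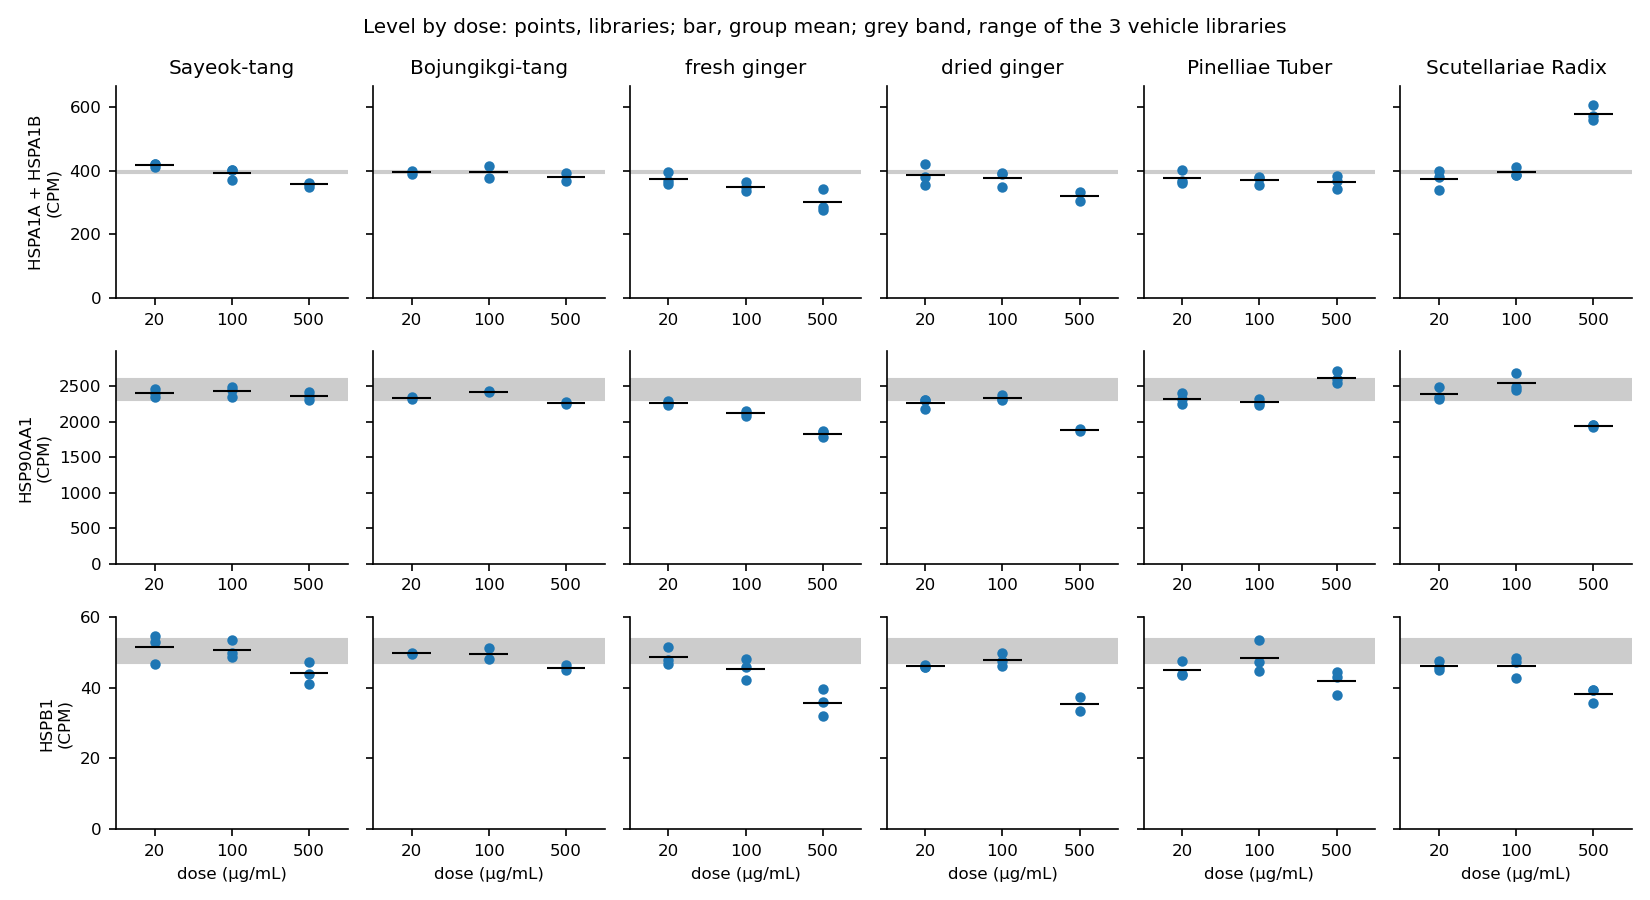
Level of HSPA1A plus HSPA1B (top), HSP90AA1 (middle) and HSPB1 (bottom) in CPM by dose in µg/mL for 6 extracts. Points are libraries, bars group means, and the grey band is the range of the 3 vehicle libraries. At 500 µg/mL the HSP70 pair leaves the band upward with Scutellariae Radix, to a mean of 579 CPM. It leaves it downward most with fresh and dried ginger, to means of 302 and 320 CPM. All libraries of Sayeok-tang and Pinelliae Tuber at that dose also lie below the band.

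Pinelliae Tuber, an extract of a tuber with the same label prefix as Scutellariae Radix, raised HSPA8, HSPH1, HSPD1 and HSP90AA1 at the high dose and lowered HSPA1A, HSPB1 and DNAJB1. HSPA8 was at 1979, 1904 and 1887 CPM against 1706, 1699 and 1687 in vehicle (log2 fold 0.18 ± 0.038, adjusted p = 0.00061), and HSPH1 was at 214, 209 and 213 CPM against 186, 192 and 186 (0.17 ± 0.035, adjusted p = 0.00036). HSPD1 rose by 9.7% (adjusted p = 0.014) and HSP90AA1 by 8.1% (adjusted p = 0.032), the latter with groups that overlapped. HSPA1A fell by 16.3%, HSPB1 fell by 16.2% and DNAJB1 fell by 8.2% (adjusted p = 0.0066, 0.0086 and 0.0084), and HSPA1B was 1.9% lower and did not pass. These 4 higher and 3 lower of 9 genes stand beside 9.14% of all genes higher and 6.57% lower. Without vehicle replicate 3 the calls fell from 7 to 3, with those of HSPA8, HSPH1 and DNAJB1 left. The HSPD1 call was also lost without vehicle replicate 1 (adjusted p = 0.054), that of HSPB1 without Pinelliae Tuber high replicate 2 (adjusted p = 0.096), and that of HSP90AA1 without vehicle replicate 1 or Pinelliae Tuber high replicate 1 or 2 (adjusted p 0.065 to 0.19). Added to HSPA1B, HSPA1A no longer passed (log2 fold -0.11, adjusted p = 0.23), although the sum passed in edgeR with only the groups compared (adjusted p = 0.047).

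Against its own low dose, Pinelliae Tuber high raised HSPA8, HSPH1 and HSP90AA1 (log2 folds 0.20, 0.18 and 0.17, adjusted p = 0.00027, 0.00034 and 0.0011), with no overlap between groups, where 5.09% of all genes rose and 4.98% fell. No member fell in that comparison. All 3 calls held on leaving out any library of those groups.

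Scutellariae Radix high and Pinelliae Tuber high were compared directly, and 8 of 9 genes differed, beside 27.2% of all genes higher and 28.7% lower. HSPA1A was 77.8% higher with Scutellariae Radix (230 ± 11.4 against 129 ± 10.7 CPM, adjusted p = 1.6e-14) and HSPA1B 47.6% higher (349 ± 14.7 against 236 ± 15.1 CPM, adjusted p = 9.7e-10). BAG3, DNAJB1 and HSPH1 were also higher (log2 folds 0.24, 0.17 and 0.09, adjusted p = 0.0053, 2.3e-05 and 0.034). HSP90AA1 was lower (-25.9%, 1942 ± 19.4 against 2621 ± 90 CPM, adjusted p = 1.2e-13), HSPA8 was lower (-17.0%, adjusted p = 4.7e-08) and HSPD1 was lower (-7.1%, adjusted p = 0.018). HSPB1 did not differ beyond its spread (log2 fold -0.13 ± 0.071, adjusted p = 0.12). The HSPH1 call was lost on leaving out replicate 1 or 2 of Scutellariae Radix high or replicate 2 or 3 of Pinelliae Tuber high (adjusted p 0.058 to 0.1), and the HSPD1 call without Scutellariae Radix high replicate 2 (adjusted p = 0.074).

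**Figure D4:**
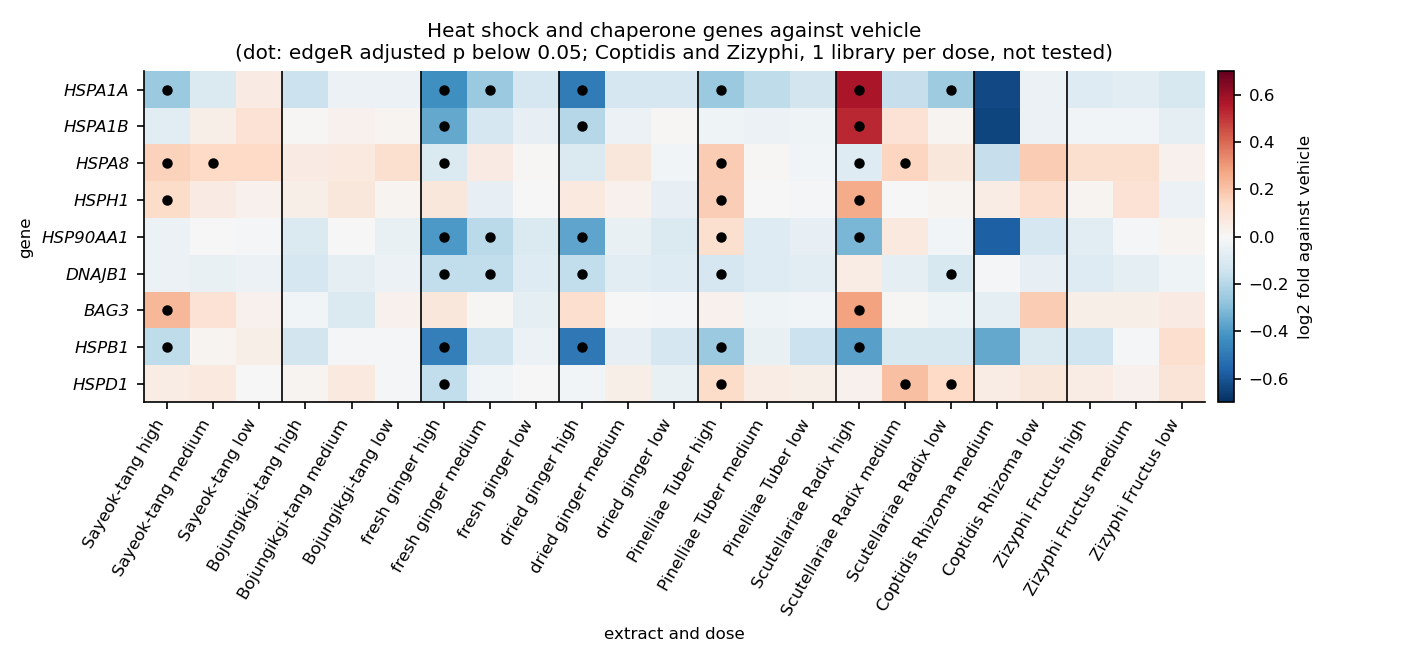
Log2 fold against vehicle for 9 genes (rows) in the 23 extract groups (columns), red higher and blue lower. Dots mark an edgeR adjusted p below 0.05; Coptidis Rhizoma and Zizyphi Fructus had 1 library per dose and were not tested. HSPA1A and HSPA1B are red with Scutellariae Radix high (0.57 and 0.53) and blue with both gingers at the high dose.

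Sayeok-tang high gave smaller changes. HSPA8 was at 1987, 1781 and 1913 CPM (log2 fold 0.16 ± 0.038, adjusted p = 0.0007), HSPH1 at 204, 203 and 211 CPM (0.13 ± 0.035, adjusted p = 0.0018) and BAG3 at 43, 39.4 and 47.1 CPM (0.23 ± 0.075, adjusted p = 0.014), each above all vehicle libraries. HSPA1A fell to 134, 122 and 131 CPM (-0.26 ± 0.068, adjusted p = 0.0017), and HSPB1 was at 47.2, 44 and 41.1 CPM (-0.18 ± 0.07, adjusted p = 0.032) with groups that overlapped. These 3 genes higher and 2 lower of 9 stand beside 20.3% of all genes higher and 19.9% lower. Without Sayeok-tang high replicate 3 the count fell from 5 to 3, since BAG3 (log2 fold 0.16, adjusted p = 0.14) and HSPB1 (adjusted p = 0.18) no longer passed. The HSPB1 call was also lost without vehicle replicate 1 or 3 (adjusted p = 0.051 and 0.2) or Sayeok-tang high replicate 2 (adjusted p = 0.066). With HSPA1B added, HSPA1A did not pass (log2 fold -0.15, adjusted p = 0.058). The sum did pass as lower in edgeR with no filter (adjusted p = 0.015), a replicate block (adjusted p = 0.014) or only the groups compared (adjusted p = 0.0017).

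From low to high dose of Sayeok-tang, HSPH1 and BAG3 rose (log2 folds 0.11 and 0.19, adjusted p = 0.014 and 0.039) and HSPA1A, HSPB1 and HSPA1B fell (-0.32, -0.22 and -0.17, adjusted p = 0.00017, 0.0093 and 0.038), where 18.4% of all genes rose and 19.3% fell. The HSPA1A call, from 156, 171 and 156 CPM to 134, 122 and 131, was the only one of the 5 that held on leaving out each library in turn. Without Sayeok-tang high replicate 3 it was the only call left, and 3 calls were left without high replicate 1 or without any 1 of the low replicates. At the medium dose HSPA8 rose (1874 ± 47.9 against 1698 ± 9.39 CPM, adjusted p = 0.02), the 1 gene of 9, beside 2.17% of all genes higher and 2.04% lower. This call was lost without vehicle replicate 1 or 3 and without Sayeok-tang medium replicate 1 or 3. HSPA8 was at 1870 ± 54 CPM at the low dose, close to 1893 ± 104 CPM at the high dose. It did not pass between these doses, so its rise was seen only against vehicle, which has another label prefix. The low dose did not pass against vehicle.

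With Bojungikgi-tang none of the 9 genes passed at any dose in the main edgeR fit or in DESeq2. At the high dose 2 genes had an unadjusted p under 0.05, the lower DNAJB1 among them at 174 and 185 CPM against 194 to 195 in vehicle (log2 fold -0.12 ± 0.038, adjusted p = 0.067), and 4.55% of all genes passed. DNAJB1 passed without Bojungikgi-tang high replicate 3 (adjusted p = 0.049) and without the pair of libraries that lay far from their groups (adjusted p = 0.046). At the medium dose no member had an unadjusted p under 0.05 and 0.0645% of all genes passed, and at the low dose 1 had and 0% passed, with 844 genes at an unadjusted p under 0.05 and 2 genes passing in DESeq2. Between its high and low doses no member had an unadjusted p under 0.05, none passed in DESeq2, and 1.69% of all genes passed. The standard errors of these comparisons were larger than where groups had 3 libraries (0.076 against 0.068 for HSPA1A against vehicle).

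The formulas were compared at the high dose. BAG3 was higher with Sayeok-tang (43.2 ± 3.82 CPM, n = 3) than with Bojungikgi-tang (36.5 ± 1.83 CPM, n = 2; log2 fold 0.24 ± 0.085, adjusted p = 0.029), and it was the 1 gene of 9 called, beside 13.2% of all genes higher and 13% lower. That call was lost without Bojungikgi-tang high replicate 2 (adjusted p = 0.26) or Sayeok-tang high replicate 3 (adjusted p = 0.18). Without Sayeok-tang high replicate 2 the count was 2, with HSPA8 added (log2 fold 0.14, adjusted p = 0.016).

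In the remaining comparisons with vehicle none of the 9 genes passed in the main edgeR fit or in DESeq2. At medium doses, dried ginger had 2 genes and Pinelliae Tuber 3 at an unadjusted p under 0.05, where 1.45% and 0.287% of all genes passed. At low doses, Sayeok-tang had 1 gene and fresh ginger, dried ginger and Pinelliae Tuber 2 each, where 0.0574%, 0.602%, 2.12% and 0.272% of all genes passed. HSPA1A was between 136 and 151 CPM in the 9 low-dose libraries of fresh ginger, dried ginger and Pinelliae Tuber, against 148 to 161 CPM in vehicle.

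The groups with 1 library are described by where they lie relative to the 3 vehicle libraries. Coptidis Rhizoma medium had the lowest HSPA1A and HSPA1B of all 24 groups, at 100 and 155 CPM, which differed from the vehicle mean by -35.2 and -35.7%, and the lowest HSP90AA1, at 1628 CPM (-32.8%). HSPB1 was at 39 CPM, below the vehicle range of 46.9 to 53.8. In all 7 of 9 genes were below the vehicle range and 1 above, but 84.1% of all genes lay outside that range in this library. Coptidis Rhizoma low had 4 genes below and 4 above (71.7% of all genes outside), with HSPA8 at 1925 CPM the highest group value of that gene. The TMM factors of the Coptidis Rhizoma medium and low libraries were 0.913 and 0.878, against 0.98 to 1.04 in the other groups. A low factor raises scaled levels, and the 4 genes above the range at the low dose depend on that scaling. For Zizyphi Fructus, 7 genes at the high, 6 at the medium and 8 at the low dose were outside, beside 57.7%, 58.4% and 68.1% of all genes, and no member differed from the vehicle mean by more than 13.4% in these libraries or in Coptidis Rhizoma low. HSPA6 had 4 counts in Coptidis Rhizoma medium, 1 in the low dose, and 0, 1 and 1 in the Zizyphi Fructus libraries.

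The same genes differed in how far they ranged over the 24 group means. HSPA1A spanned 2.29-fold, from Coptidis Rhizoma medium to Scutellariae Radix high, and HSPA1B 2.25-fold. HSP90AA1 spanned 1.61-fold, HSPB1 1.53-fold, HSPD1 and BAG3 1.3-fold, HSPA8 1.26-fold, HSPH1 1.25-fold and DNAJB1 1.17-fold. The median coefficient of variation between replicates was 5.2% for HSPA1A, 4.9% for HSPA1B, 5.7% for HSPB1 and 5.9% for BAG3, and between 1.6 and 2.8% for the others. HSPA1A made up 39.0% of the pair in vehicle, 39.7% in Scutellariae Radix high and 34.4% in dried ginger high. With Scutellariae Radix medium and low it was 34.9% and 34.8%, below the vehicle range of 37.9 to 40.3%. Means below that range were also found with other extracts, such as 35.4% with Pinelliae Tuber high and 36.0% with Sayeok-tang high. The sum ranged from 255 to 579 CPM over the group means. As a description over the 24 group means, HSPA1A and HSPA1B had a Pearson correlation of 0.91, HSPA8 and HSP90AA1 0.80, and HSPH1 and BAG3 0.67, whereas HSPA1A with HSPH1 was at 0.33 and with HSPA8 at 0.21. The group means share the vehicle, sequencing depth and scaling. HSPA1A and HSPA1B also share most of their 100-base windows, and how far the split of reads entered their correlation was not tested. Among 9382 genes, the pattern most like that of HSPA8 was SERBP1 and LYAR (0.91 each), followed by RIOK1 (0.90), GNL3 and NAT10 (0.89 each). HSPD1 was most like CCT6A (0.87), NAAA and MRPL15 (0.84 each), then CCT5 and HSP90AB1 (0.83 each). HSPB1 was most like PNRC2 and ATP5IF1 (0.93 each), with HMGB3, CCDC144NL-AS1 and GLRX5 at 0.90, and DNAJB1, which ranged little, like BMI1 (0.77), RWDD2B, CSNK2B and TAF12 (0.69 each) and DEDD2 (0.68).

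The other chaperone genes did not move as 1 group with Scutellariae Radix high, where 28.7% of all genes rose and 28.1% fell. Of the cytosolic HSP70, HSP110 and HSP90 genes outside the 10, 2 of 6 rose and 1 fell. HSPA4L, an HSP110, rose from 55.4 ± 1.54 to 72.2 ± 3.08 CPM and HSPA12A from 21.6 ± 0.373 to 31.6 ± 0.269 CPM, whereas HSP90AB1, the constitutive cytosolic HSP90, was at 3329 ± 56.5 CPM against 3374 ± 87.7 and did not pass (adjusted p = 0.61). Of 20 other cochaperones 7 rose and 5 fell. FKBP4, an HSP90 immunophilin, rose (log2 fold 0.31, adjusted p = 1.6e-09), and STIP1, which joins HSP70 to HSP90, fell (-0.22, adjusted p = 1.6e-06). Of 8 J domain cochaperones 3 rose and 2 fell, with DNAJB4 at 0.62 and DNAJA1, a main J domain partner of HSPA8, at -0.27 (adjusted p = 5.6e-10 and 9.2e-08). AHSA1, an activator of the HSP90 ATPase, did not pass (0.02, adjusted p = 0.66), and CHORDC1 fell (-0.15, adjusted p = 0.0032).

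Among 8 further targets of HSF1, 4 rose and 4 fell with Scutellariae Radix high. IER5, which is known to activate HSF1, rose from 6.2 ± 0.231 to 12.8 ± 1.26 CPM (log2 fold 1.04 ± 0.097, adjusted p = 9.1e-13). SERPINH1, the collagen chaperone, fell from 149 ± 2.96 to 110 ± 1.86 CPM (adjusted p = 1e-13). HSF1 itself rose from 68.7 ± 1.86 to 79.3 ± 2.33 CPM (log2 fold 0.21 ± 0.051, adjusted p = 0.00058). Of the 5 heat shock factors and regulators 3 rose and none fell, and HSF2 did not pass (-0.10, adjusted p = 0.14).

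Chaperones of the endoplasmic reticulum fell with Scutellariae Radix high in 12 of 16 cases and rose in 2, with a median log2 fold of -0.19 beside 0.01 for all genes. HSPA5, the HSP70 of that compartment, fell from 1432 ± 12.8 to 1046 ± 29.1 CPM (log2 fold -0.45 ± 0.032, adjusted p = 1.1e-16). CALR, a chaperone of glycoproteins, fell from 1389 ± 23.4 to 916 ± 23.6 CPM (adjusted p = 4.9e-21), and PDIA4, a disulfide isomerase, from 492 ± 5.18 to 344 ± 11.3 CPM (adjusted p = 3e-21). In mitochondria 5 of 12 rose and 2 fell. HSPA9, the mitochondrial HSP70, rose from 534 ± 16.7 to 651 ± 22.9 CPM (adjusted p = 3.8e-10), while HSPE1, the partner of HSPD1 in the chaperonin, was at 429 ± 50.2 CPM against 468 ± 12.3 and did not pass (adjusted p = 0.14). Of 31 proteasome genes 18 rose and 1 fell, with PSMD2 from 284 ± 6.91 to 419 ± 8.82 CPM (adjusted p = 2.5e-18).

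With the gingers at the high dose, the other chaperone lists were mixed. Of 4 further small heat shock proteins 2 were tested. Unlike HSPB1, both rose with fresh ginger (median log2 fold 0.81), and neither passed with dried ginger (0.39). Both were low in vehicle and in fresh ginger high, under the level required here for naming a gene. Their folds thus rest on far fewer reads than that of HSPB1. HSP90AB1 fell from 3374 ± 87.7 CPM to 2920 ± 57.6 with fresh ginger (adjusted p = 2e-07) and to 2993 ± 53.2 with dried ginger (adjusted p = 4.7e-05). DNAJA1 fell by log2 folds of 0.37 and 0.31 and STIP1 by 0.29 and 0.26 with fresh and dried ginger. Of the 20 other cochaperones 4 rose and 4 fell with fresh ginger and 6 rose and 4 fell with dried ginger. Over all genes 24.3% rose and 23.6% fell with fresh ginger and 23.3% rose and 22.8% fell with dried ginger. Of the 8 further HSF1 targets 2 rose and 4 fell with either ginger, with CACYBP at -0.39 with fresh ginger (adjusted p = 1.4e-08) and CLU, an extracellular chaperone, at -0.56 with dried ginger (adjusted p = 3e-13). IER5 rose with fresh ginger (0.64, adjusted p = 6.9e-07), and HSF1 rose with both (0.26 and 0.17, adjusted p = 3.6e-05 and 0.011). Endoplasmic reticulum chaperones were 5 higher and 6 lower of 16 with fresh ginger and 9 higher and 2 lower with dried ginger, with DNAJB9 at 0.86 in the latter (adjusted p = 9.7e-15). In the direct comparison 8 of these 16 were lower and 1 higher with fresh ginger, beside 10.2% of all genes lower and 13.2% higher.

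Pinelliae Tuber high and Sayeok-tang high both raised chaperonin genes. The cytosolic chaperonin TRiC with its cofactor prefoldin had 8 of 14 genes higher and none lower with each, where 9.14% of all genes rose with Pinelliae Tuber and 20.3% with Sayeok-tang. CCT4, a TRiC subunit, rose from 334 ± 2.21 to 376 ± 5.02 CPM with Pinelliae Tuber (adjusted p = 0.0012), and CCT8 from 231 ± 4.68 to 261 ± 3.26 CPM with Sayeok-tang (adjusted p = 0.00028). Mitochondrial chaperones were 6 of 12 higher with Pinelliae Tuber, among them HSPE1 (0.29, adjusted p = 0.0041) and HSPA9 (0.14, adjusted p = 0.0023), and 5 of 12 higher with Sayeok-tang, with neither of these passing. Proteasome genes were 12 of 31 higher with Pinelliae Tuber and 27 of 31 with Sayeok-tang, and 18 and 22 with fresh and dried ginger, with none lower in these 4 comparisons. HSPA4, an HSP110, rose with Sayeok-tang from 246 ± 5.37 to 273 ± 3.14 CPM (adjusted p = 0.00026), and the HSP70 exchange factor BAG2 from 65.9 ± 2.89 to 93.1 ± 1.73 CPM (adjusted p = 8.4e-13). With Bojungikgi-tang high at most 1 gene of any of these lists passed in either direction, with HSPA12A and BAG2 higher and BAG4 lower among them. All these comparisons share the vehicle libraries.

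**Figure D5:**
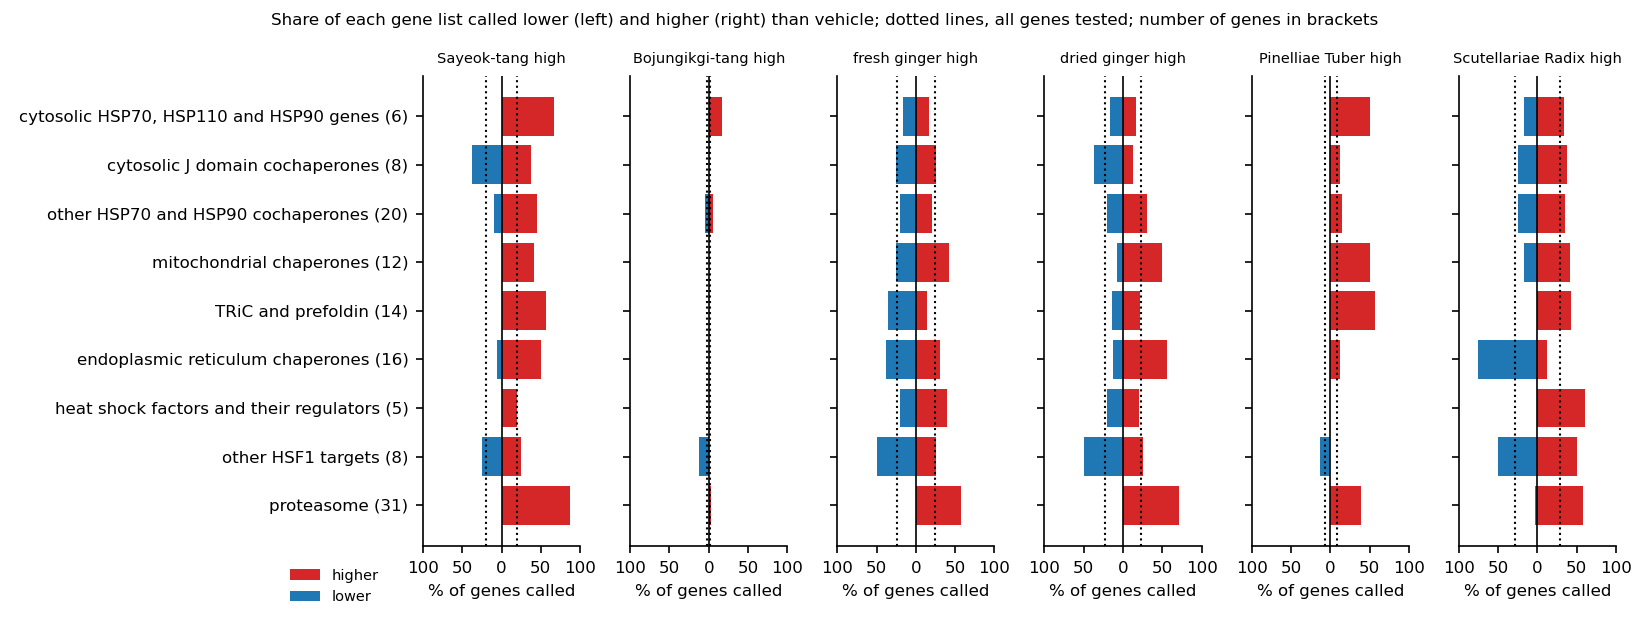
Share of each gene list (rows, number of genes in brackets) called higher (red, right) or lower (blue, left) than vehicle, in percent, for 6 extracts at the high dose. The small heat shock proteins, with 2 genes tested, are not drawn. Dotted lines give the same shares over all genes tested; the endoplasmic reticulum list reaches left with Scutellariae Radix, 12 of 16 genes, and the proteasome list right with all but Bojungikgi-tang.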

How the data were processed

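The authors deposited a table of expected counts per gene (RSEM 1.3.3, STAR 2.7.3a, Trim Galore 0.6.5 and FastQC 0.11.9 on hg38, per the submitters' processing notes). The table was read by matching column names to sample labels, and 209 of its value columns were not used. Expected counts were rounded to whole numbers, and genes were kept where 3 or more libraries reached 1 CPM. The main fit was edgeR 4.0.16 in R 4.3.3 (TMM, quasi-likelihood F-test, 1 mean for each of 24 groups), tested on simulated data. Comparisons used groups of 2 or more libraries. Alternatives were DESeq2 1.42.0, RLE scaling, no filter, only the groups compared, a replicate block, the HSPA1A and HSPA1B counts added, and each library left out. HSPA6 was kept apart from the planned test because it passed the filter through 1 group. The members and gene lists were chosen with earlier results of these data known. Named genes outside the 10 were 12 set by name, the 3 called genes of each list with the largest changes at the high doses, and the 5 genes most like DNAJB1, HSPA8, HSPB1 and HSPD1. The called genes of a list also had to reach a minimum mean CPM in the treated or the vehicle libraries. Library totals of 22143845 to 31859981 limit the precision of low genes, and intervals for HSPA6 cover counting error only.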

Additional observations from a re-analysis of the deposited data

How the results depend on the processing

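No value changed direction. Of 79 calls of the 9 genes over the 28 comparisons, 50 held under every alternative. Counts of genes called out of 9 moved in several comparisons, and the cause was not tested. Against vehicle, Scutellariae Radix high lost HSPA8 with no filter and on leaving out any 1 library of either group. Fresh ginger high lost HSPA8 with no filter or only the groups compared, and dried ginger high lost HSPA1B without vehicle replicate 1 or its own replicate 2. Scutellariae Radix high against low lost HSPD1 without low replicate 3. Further moves included these. On leaving out 1 library at a time the count ran from 3 to 5 for Sayeok-tang high against vehicle (main 5), 0 to 1 for Bojungikgi-tang high (0), 3 to 7 for Pinelliae Tuber high (7), 0 to 1 for Sayeok-tang medium (1) and 0 to 3 for Scutellariae Radix low (3). Between extract groups it ran from 1 to 4 for Sayeok-tang high against low (5), 4 to 5 for dried ginger high against low (5), 0 to 2 for Sayeok-tang against Bojungikgi-tang high (1), and 0 to 1 for fresh against dried ginger at the high and at the medium dose (1 each).

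With only the groups compared, the count was 1 for Pinelliae Tuber medium against vehicle (main 0), 1 for Scutellariae Radix low (3), 3 for dried ginger high against low (5) and 0 for fresh against dried ginger high (1). With no filter it was 1 for Pinelliae Tuber medium and 2 for fresh against dried ginger high. With RLE scaling and with DESeq2 it was 2 for Sayeok-tang against Bojungikgi-tang high. Without the 2 libraries that lay far from their groups, a setting chosen after seeing the data, it was 1 for Bojungikgi-tang high, 0 for Scutellariae Radix low and 3 for Sayeok-tang against Bojungikgi-tang high. No filter also ended DNAJB1 and HSP90AA1 for Pinelliae Tuber high and DNAJB1 for Scutellariae Radix low. It ended HSPH1 for dried ginger high against low and for Scutellariae Radix against Pinelliae Tuber high. HSP90AA1 for Pinelliae Tuber high was lost with RLE scaling or only the groups compared as well.

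The replicate block gave 2 for fresh against dried ginger high (main 1). In no comparison with 3 pairs were all same-numbered pairs correlated over 0.1, so the samples were taken to share only a number. With 2 pairs, both were at 0.12 in Bojungikgi-tang high against low. Depth limits HSPA6, which had at most 6 counts outside Scutellariae Radix high.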
